A study of Homo sapiens with 15 samples.

Results

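The comparison described here set 3 libraries labelled KIF20A_OE against 3 empty vector (EV) libraries, 6 of the 15 libraries of the study, across every gene of their shared table. All 6 are labelled MDA-MB231, an established human line of triple-negative breast cancer, with the cell type given as breast cancer. The EV libraries carry the genotype label WT and the others the label KIF20A overexpression. Total RNA came from cells grown in DMEM with 10% fetal bovine serum. The labels name no vector, promoter, clone or selection, and do not say whether replicates are separate cultures, so the p-values reflect the spread among these libraries alone, and that spread may be technical. The other 9 libraries form a depletion dataset of KIF20A and its control in cells labelled as the same line. They stand in a table normalized apart from this one, so their levels, given in counts per 1000000 counts (CPM), serve below as a description only.

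KIF20A encodes a kinesin motor that works at the central spindle when dividing cells separate. Its overexpression in one cell line would be read against that line's own identity genes, which lineage-restricted transcription factors, keratins, adhesion molecules and matrix genes make up. MDA-MB231 belongs to the mesenchymal class of breast cancer lines, known for high vimentin, CD44 and AXL, for low E-cadherin, and for a homozygous deletion of CDKN2A on the short arm of chromosome 9. HOX genes keep a record of position along the body axis that cultured cells tend to hold.

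Libraries held 17 to 21 M fragments in EV (M for 1000000) and 16 to 22.2 M in the libraries labelled KIF20A_OE. Values are fragments per 1000000 fragments (FPM). A gene with no fragment had a floor of 3 fragments, equal to 0.135 to 0.188 FPM, and floors and intervals allow for counting error alone, because no molecular identifiers tell copies of a molecule apart. Of the 23792 genes listed, 15265 had a mean of at least 1 FPM and were tested with limma on log2(FPM + 1), a scale that understates changes of low genes. Across those genes Pearson's r of log2 levels was 0.975 to 0.98 between EV libraries, 0.979 to 0.989 between libraries labelled KIF20A_OE, and 0.698 to 0.724 between the groups. Against the 9 depletion libraries r was 0.896 to 0.908 for EV and 0.717 to 0.734 for the libraries labelled KIF20A_OE, as a description across genes, which are not independent replicates. The libraries labelled KIF20A_OE thus stood apart both from EV and from every other library labelled MDA-MB231.

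Against their label, the 3 libraries labelled KIF20A_OE lacked several defining genes of MDA-MB231. CD44 stood at 788, 615 and 523 FPM in EV and at 0.125, 0.316 and 1.23 FPM in them. AXL stood at 967, 1107 and 811 FPM against 0.751, 0.811 and 0.75 FPM. CDKN2A, listed at 0 in all EV and all 9 depletion libraries, stood at 276, 336 and 353 FPM. The EV libraries matched the labelled line in these genes and the libraries labelled KIF20A_OE did not. A difference in KIF20A and a difference in the cells themselves run along the same 3 against 3 libraries in every result that follows and cannot be told apart, and no subset of the libraries separates them.

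**Figure D1:**
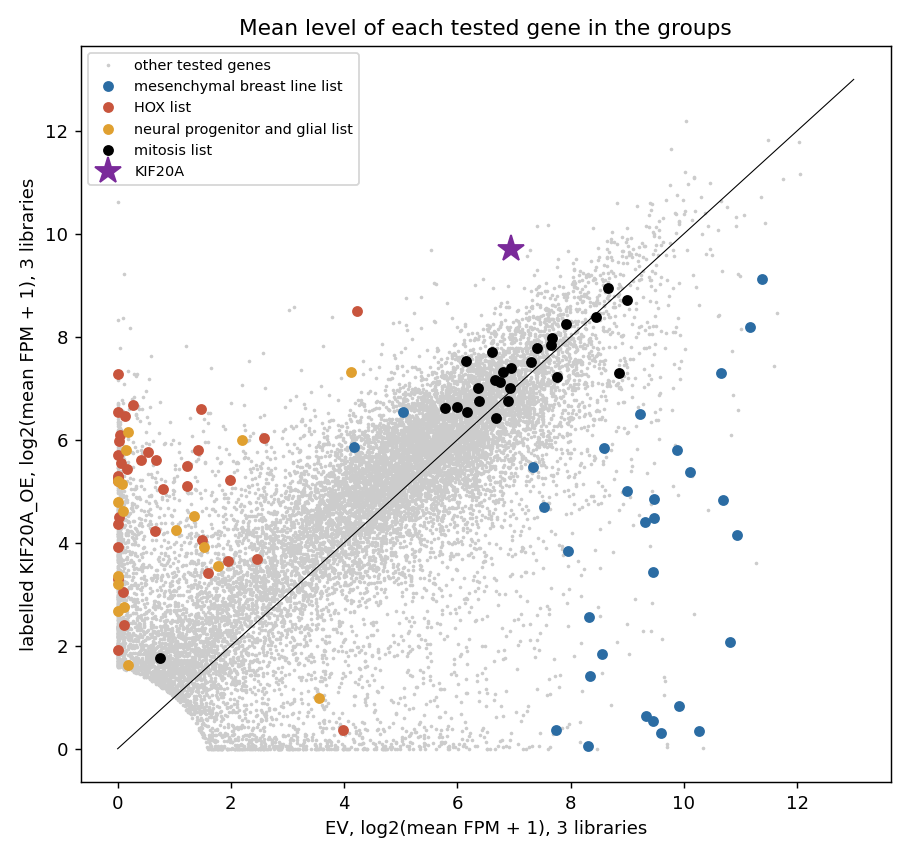
Mean level of the 15265 tested genes, less transcripts of sex-chromosome dosage, which are not drawn. Levels are log2(mean FPM + 1) in the 3 EV libraries (x axis) and the 3 libraries labelled KIF20A_OE (y axis). KIF20A is a star, and list members are blue (mesenchymal breast line), red (HOX), orange (neural progenitor and glial) and black (mitosis). Other genes are grey, and the diagonal marks equal levels. Genes at the foot of either axis are those present in one group of libraries and at or near 0 in the other. The limits given below count only part of them, 340 on the left edge and 145 on the lower edge, with transcripts not drawn included.

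KIF20A (ENSG00000112984.12; GRCh38 chromosome 5, 138178719 to 138187715, plus strand) was higher in all 3 libraries labelled KIF20A_OE. It stood at 101, 143 and 124 FPM in EV and at 1348, 269 and 896 FPM in the libraries labelled KIF20A_OE, 123 ± 20.9 against 838 ± 542 (SD, n = 3 each). The groups did not overlap, and replicate 2 was by far the lowest of the overexpression libraries. The log2 fold change was 2.49 ± 0.53 (SE, limma adjusted p = 0.00415), and pooled rates stood in a ratio of 6.36 (95% interval 6.21 to 6.53). It was 3.17 without KIF20A_OE replicate 2 and 2.01 without KIF20A_OE replicate 1. With 1 FPM added to each value, the highest library was 4.99 times the lowest. Only 54 of the 15265 tested genes exceeded that ratio within the group, where the median gene had 1.27. The 3 libraries thus differed in KIF20A far more than in most genes. The depletion libraries held 61.4 to 171 CPM.

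Most of the transcriptome differed between the groups. Of the tested genes 10621 (69.6%) passed the threshold, 7048 (46.2%) higher and 3573 (23.4%) lower in the libraries labelled KIF20A_OE, and for 11317 (74.1%) the libraries of the groups did not overlap. These shares are the background for every count of called genes below. A gene that averaged under 1 FPM in a group passed the filter on low values only through the other group, which fixed its direction. This was so of 1897 tested genes for EV and of 867 for the libraries labelled KIF20A_OE. Counts and medians of the lists below are therefore descriptions of the members tested, and the number of members that averaged under 1 FPM in EV is given with them. Members under 1 FPM in the libraries labelled KIF20A_OE had their direction fixed as lower, and for some lists their number is given too. For others it was 4 (lineage factors), 3 (kidney and urogenital) and 2 (fibroblast, endoderm and liver, leukocyte). It was 1 for the neuronal, neural progenitor and glial, melanocyte, gut, lung and prostate, HOX and housekeeping lists. The median log2 fold change was 0.37, and centring each library on its median moved all values by 0.3 and gave 5377 higher (35.2%) and 4782 lower (31.3%), so the share of higher among called genes fell from 66.4% to 52.9%. It was 52.1% with edgeR and 51.4% with DESeq2. A called change of at least 8-fold on the log2 scale was found for 795 genes upward (5.21%) and 621 downward (4.07%). Of these, 743 (93.5%) and 481 (77.5%) had a level in the depletion libraries nearer to EV than to the libraries labelled KIF20A_OE, which does not say that the levels were alike. The same share over all tested genes is not given, so these values have no background beside them. In bulk RNA, fewer cells of a type and less RNA per cell cannot be told apart.

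Sequence context of the genes with the largest differences is shown for promoters, because the members include genes at 0 in one group and above 100 FPM in the other. Of the 18 largest rises and falls named below, 14 were found in the RefSeq promoter table (GRCh38.p14). By the exon annotation used for this choice, 6 of them had a window with at most 30 bases of exon. The CDKN2A window also lies within CDKN2B-AS1 (chr9:21994778-22121097) and overlaps RP11-149I2.4 (chr9:21995482-21996013), listed genes on the plus strand. The IRS4 window lies within RP6-24A23.3 (chrX:108736011-108738903), also on the plus strand. Both windows may thus hold more transcribed sequence than that limit. Each sequence is the 250 bases before the start, read 5′ to 3′ on the gene's strand, with CG dinucleotides, the sites of DNA methylation, in capitals. The first pair belongs to genes high in EV and at most 5.07 FPM in the libraries labelled KIF20A_OE, AXL (chr19:41218973-41219222, plus strand) and MMP14 (chr14:22836335-22836584, plus strand).
AXL: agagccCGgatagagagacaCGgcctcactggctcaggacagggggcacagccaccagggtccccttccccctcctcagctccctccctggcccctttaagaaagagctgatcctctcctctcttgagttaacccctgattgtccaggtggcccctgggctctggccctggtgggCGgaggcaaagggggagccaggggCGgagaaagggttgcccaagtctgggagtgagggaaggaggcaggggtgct
MMP14: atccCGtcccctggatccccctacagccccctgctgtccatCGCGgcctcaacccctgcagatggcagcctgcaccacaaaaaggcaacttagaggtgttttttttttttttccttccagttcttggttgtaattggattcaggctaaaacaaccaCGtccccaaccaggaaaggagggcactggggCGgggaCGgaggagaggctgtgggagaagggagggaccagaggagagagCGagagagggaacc
The next pair belongs to genes at 0 in EV, CDKN2A (chr9:21995325-21995574, minus strand) and HOXD13 (chr2:176092471-176092720, plus strand).
CDKN2A: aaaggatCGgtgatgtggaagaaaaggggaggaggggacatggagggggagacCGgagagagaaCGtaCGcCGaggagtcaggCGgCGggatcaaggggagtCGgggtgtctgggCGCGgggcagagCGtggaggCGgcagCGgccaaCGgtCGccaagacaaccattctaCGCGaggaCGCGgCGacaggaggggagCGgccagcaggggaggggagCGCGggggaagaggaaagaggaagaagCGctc
HOXD13: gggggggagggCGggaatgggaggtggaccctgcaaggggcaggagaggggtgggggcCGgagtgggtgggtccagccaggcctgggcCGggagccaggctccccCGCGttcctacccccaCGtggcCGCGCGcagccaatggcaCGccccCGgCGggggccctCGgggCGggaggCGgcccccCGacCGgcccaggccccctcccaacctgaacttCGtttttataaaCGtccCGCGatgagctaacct
The AXL window held 4 CG dinucleotides and that of MMP14 held 7, against a median of 11 over 27305 promoter windows of the same length. Of all windows, 65% held more than AXL and 55.8% more than MMP14. CDKN2A had 24 and HOXD13 had 21, and 21.3% and 27.6% of windows held more. The other windows of this choice, both of genes absent from EV or nearly so, had 16 (IRS4) and 22 (AMOT). These counts describe the sequence only. No methylation was measured, and a count over whole gene sets was not made because the table matched 66.2% of the genes present only in the libraries labelled KIF20A_OE and 58.6% of those present only in EV.

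Genes of the mesenchymal breast line were lower almost throughout. Of 30 listed and tested, 28 were lower and 2 higher, with a median log2 fold change of -4.99 beside 0.37 for all tested genes. In the libraries labelled KIF20A_OE 7 of the 30 averaged under 1 FPM, so the filter fixed their direction as lower. The summed level of the 30 was 24212 to 25879 FPM in EV and 1359 to 1933 FPM in the libraries labelled KIF20A_OE. The list covers surface proteins, proteases, cytoskeleton and matrix.

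Among the surface proteins, NT5E, the ecto-nucleotidase that makes extracellular adenosine, stood at 1191, 1273 and 1254 FPM in EV. In the libraries labelled KIF20A_OE it stood at 0.125, 0.27 and 0.428 FPM, from 2, 6 and 8 fragments. The log2 fold change was -9.93 ± 0.14 (SE, limma adjusted p = 4.91e-09), and the pooled rate was 4398-fold lower (95% interval 2708 to 7695). AXL, a receptor tyrosine kinase, fell by 9.08 on the log2 scale and CD44, the hyaluronan receptor, by 8.73, with pooled rates 1255-fold and 1155-fold lower. TM4SF1, a tetraspanin-like membrane protein, stood at 324, 290.3 and 334 FPM in EV and at 0, 0 and 0.107 FPM in the others. EGFR, the epidermal growth factor receptor, was reduced but present, at 478, 611 and 446 FPM against 28, 33.2 and 32 FPM. All of these had no overlap between groups, and the depletion libraries held 508 to 822 CPM of NT5E, 1305 to 1917 CPM of AXL and 353 to 569 CPM of EGFR.

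Matrix proteases fell as far. PLAU, the urokinase that activates plasminogen, stood at 627, 667 and 816 FPM in EV against 0.25, 0.586 and 0.535 FPM. MMP14, a membrane-anchored matrix metalloprotease, stood at 2036, 1322 and 2037 FPM against 5.07, 2.03 and 2.57 FPM. The log2 fold changes were -8.92 ± 0.17 and -8.77 ± 0.28 (SE), with limma adjusted p of 9.92e-09 and 8.48e-08.

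The list also holds cytoskeleton and matrix genes. VIM, the intermediate filament of mesenchymal cells, stood at 2735, 2705 and 2519.8 FPM in EV and at 776, 347 and 544 FPM in the libraries labelled KIF20A_OE. Its log2 fold change was -2.33 ± 0.25 (SE, limma adjusted p = 6.79e-05). The depletion libraries held 544 to 789 CPM of VIM, nearer to the libraries labelled KIF20A_OE than to EV, so EV differed from them too. MSN, the membrane-cytoskeleton linker moesin, was 8.11-fold lower by pooled rates. FN1, the matrix protein fibronectin, went from 2010.2, 1204 and 1775 FPM to 28.6, 24.9 and 28.6 FPM. The depletion libraries held 744 to 887 CPM of MSN and 189 to 609 CPM of FN1, between the groups. CAV1, the coat protein of caveolae, went from 771, 681 and 664 FPM to 26.5, 13.8 and 24 FPM. FOSL1, an AP-1 transcription factor high in this class of line, was 195-fold lower (95% interval 159.7 to 242).

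The 2 members that were higher were SNAI2 and SPARC. SNAI2, a repressor of epithelial genes, stood at 34.6, 25.9 and 35.5 FPM in EV and at 99.9, 106 and 70.5 FPM in the libraries labelled KIF20A_OE (log2 fold change 1.49 ± 0.19 SE, limma adjusted p = 0.000184). SPARC, a matrix glycoprotein, stood at 8.24, 6.28 and 36.9 FPM against 68, 74.6 and 27.6 FPM, so the groups overlapped. Its call (limma adjusted p = 0.0293) was lost with median centring, the replicate block, edgeR, DESeq2 and without EV replicate 1, EV replicate 2, KIF20A_OE replicate 1 or KIF20A_OE replicate 2 (adjusted p = 0.0502 to 0.136), and the list then had 1 higher member.

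**Figure D2:**
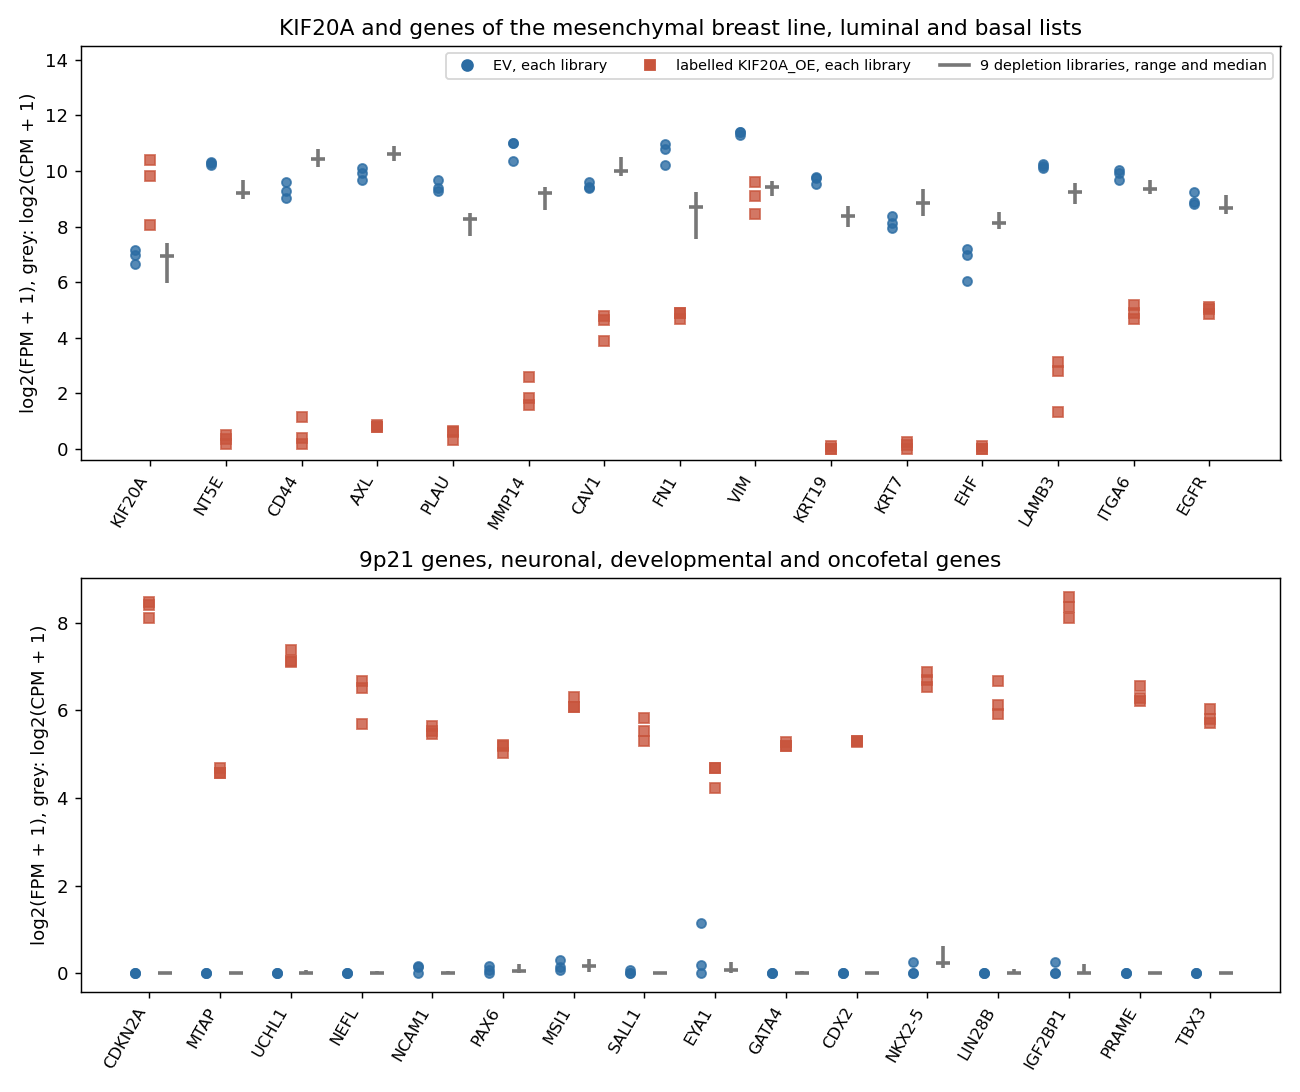
Level of selected genes in each library, as log2(FPM + 1), with a point per library for EV (blue circles) and the libraries labelled KIF20A_OE (red squares), and the range and median of the 9 depletion libraries in grey as log2(CPM + 1). In the upper panel NT5E, CD44 and AXL lie above 500 FPM in all EV libraries and under 1.3 FPM in all libraries labelled KIF20A_OE. In the lower panel CDKN2A, UCHL1 and PRAME are listed at 0 in EV and lie above 70 FPM in the libraries labelled KIF20A_OE.

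Epithelial lineage genes differed in both directions. Of 22 tested luminal breast genes 11 were lower, 5 higher and 6 not called (median -1.24, or -2.22 with genes at 0 set to the floor), and 5 averaged under 1 FPM in EV. In the libraries labelled KIF20A_OE 9 averaged under 1 FPM, so the filter fixed their direction as lower. KRT19, a luminal keratin, stood at 858, 744 and 880.2 FPM in EV and at 0, 0.0902 and 0 FPM in the libraries labelled KIF20A_OE, 2 fragments in all. Its pooled rate was 23428-fold lower, with a counting interval of 6485 to 193460.4. EHF, an epithelial ETS factor, stood at 145, 124 and 64.8 FPM against 0, 0.0902 and 0 FPM, and the depletion libraries held 242 to 369 CPM. The partner keratins KRT8 and KRT18 remained, at 603 ± 62.2 against 296 ± 53.6 FPM for KRT8 (SD, n = 3 each; log2 fold change -1.04 ± 0.16 SE, limma adjusted p = 0.000465) and means of 397 against 131 FPM for KRT18. The 5 higher members were XBP1, TBX3, FOXA1, ERBB4 and KIT. TBX3, a T-box factor of mammary development, was listed at 0 in EV and in all 9 depletion libraries and stood at 64.9, 55 and 51.6 FPM. FOXA1, a pioneer factor of luminal and endodermal cells, stood at 0.0952, 0.145 and 0.353 FPM in EV and at 16.2, 17.1 and 19.1 FPM. ESR1, the oestrogen receptor, was under 0.51 FPM in every library and was not tested. GATA3, a luminal regulator, stood at 8.66, 6.52 and 10.6 FPM against 8.77, 15.2 and 10.7 FPM and did not pass the test (limma adjusted p = 0.21).

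Of 23 basal and myoepithelial genes 13 were lower, 7 higher and 3 not called (median -1.45, or -2.01 with genes at 0 set to the floor), and 3 averaged under 1 FPM in EV. In the libraries labelled KIF20A_OE 4 averaged under 1 FPM, so the filter fixed their direction as lower. LAMB3, a chain of the basement membrane laminin of epithelia, stood at 1209, 1155 and 1110.4 FPM in EV against 7.83, 1.53 and 5.94 FPM. ITGA6, its integrin receptor chain, stood at 965, 828 and 1061 FPM against 28.4, 24.7 and 34.9 FPM. FOXC1, a forkhead factor of basal-like cancers, moved the other way, from 40.5, 49.4 and 50.6 FPM to 538, 607 and 443 FPM (log2 fold change 3.47 ± 0.15 SE, limma adjusted p = 3.51e-07). ID4, a helix-loop-helix inhibitor, went from 1.14, 2.27 and 7.76 FPM to 64.7, 81.1 and 86.1 FPM. The keratins KRT5, KRT6A and KRT6B were not in the table, and TP63 was not called (0.571, 0.29 and 6.88 FPM against 0.188, 0.0902 and 0.214 FPM).

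Cell junction genes followed the same mixed pattern, with 13 of 23 lower, 5 higher and 5 not called (median -0.75), and 3 averaged under 1 FPM in EV. In the libraries labelled KIF20A_OE 5 averaged under 1 FPM, so the filter fixed their direction as lower. EPCAM, an epithelial adhesion molecule, stood at 29.6, 17.3 and 33.6 FPM against 2.25, 2.39 and 3.37 FPM. JUP, the junction protein plakoglobin, was lower in the test (log2 fold change -1.39 ± 0.41 SE, limma adjusted p = 0.018), but not without EV replicate 3 (adjusted p = 0.0508). CDH1, which encodes E-cadherin, was higher but low in both groups, at 0.19, 0 and 0.706 FPM in EV and 2, 4.1 and 4.44 FPM in the libraries labelled KIF20A_OE. LSR, a tricellular junction receptor, rose from 14, 1.45 and 7.23 FPM to 71.3, 80.6 and 71.6 FPM, and CGN, the tight junction protein cingulin, from 3.95, 2.42 and 1.41 FPM to 31.7, 31.2 and 31.4 FPM. The depletion libraries held 43.1 to 63.3 CPM of LSR, nearer to the libraries labelled KIF20A_OE than to EV.

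Factors of the epithelial to mesenchymal transition divided evenly, with 7 of 19 higher, 7 lower and 5 not called. Their median was 0.26 and became -0.04 with median centring, with 7 higher and 9 lower. CDH2 was 1 of 2 members that averaged under 1 FPM in EV. ZEB1, a repressor of E-cadherin, fell from 134, 163 and 185 FPM to 48.2, 41.4 and 39.8 FPM. TWIST1, a mesodermal helix-loop-helix factor, rose from 1.29, 0.532 and 1.53 FPM to 21.4, 31.6 and 28.9 FPM. CDH2, which encodes N-cadherin, rose from 0.619, 0.29 and 0.588 FPM to 33.1, 49.1 and 36.7 FPM, while the depletion libraries held 0.856 to 1.88 CPM. Of 13 fibroblast genes 6 were higher, 5 lower and 2 not called (median 0.49), and 2 averaged under 1 FPM in EV. The share of fibroblast genes higher lay near the 46.2% of all tested genes. FBLN1, the matrix protein fibulin, rose from 0.762, 0.242 and 0.529 FPM to 195, 135 and 260.2 FPM, whereas COL6A3, a collagen chain, fell from 363, 248 and 462 FPM to 4.01, 11.5 and 1.82 FPM. The depletion libraries held 2.09 to 3.62 CPM of FBLN1, nearer to EV, and 23.1 to 72.9 CPM of COL6A3, between the groups.

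**Figure D3:**
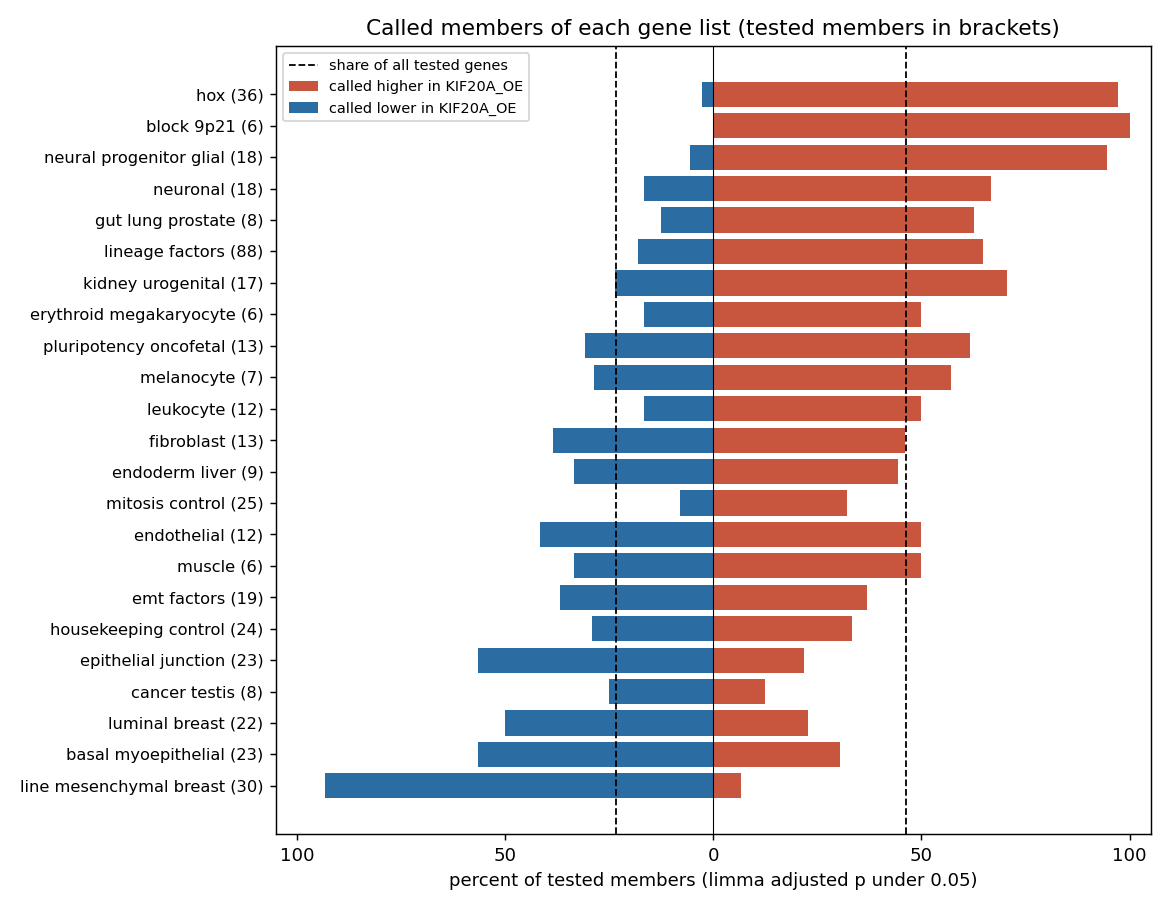
Percent of the tested members of each gene list called higher (right) or lower (left) in the libraries labelled KIF20A_OE by limma at an adjusted p under 0.05, with the number tested in brackets. Over all tested genes 46.2% were higher and 23.4% lower, and the mesenchymal breast line list (28 of 30 lower) and the HOX list (35 of 36 higher) lie at the ends.

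On chromosome 9, a run of neighbouring genes had few or no fragments in EV, and 9 of its 15 genes had more than 3 fragments in every library labelled KIF20A_OE. The other 6, FOCAD-AS1 and MIR31HG among them, had 3 or fewer in at least 1 of those libraries too. The run was found by moving outward from CDKN2A, where 15 listed genes had at most 10 fragments in every EV library, from FOCAD-AS1 to ELAVL2 (chr9:20683304-23826337). In EV 13 of them were at 0 in all libraries and the highest value was 8 fragments. In the depletion libraries 14 of the 15 were at 0 in all 9, FOCAD-AS1 being the exception at up to 8 counts. All 8 that passed the filter on low values were called higher, a filter they passed only through the libraries labelled KIF20A_OE, so that count is no support of its own.

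CDKN2A encodes the cell cycle inhibitors p16INK4a and p14ARF, and at 276, 336 and 353 FPM it was at least 2079.8-fold higher than the floor of 3 fragments per EV library. MTAP, which salvages methionine and is often lost together with CDKN2A, stood at 22.7, 24.6 and 22.6 FPM against 0 in EV, at least 151-fold higher. CDKN2B, the neighbouring inhibitor gene, stood at 14.9, 13.6 and 12.2 FPM, and CDKN2B-AS1, an RNA antisense to it, at 7.45, 5.36 and 5.14 FPM. KLHL9, an adaptor of a mitotic ubiquitin ligase, had 5, 8 and 2 fragments in EV and 157, 148 and 143 FPM in the others. DMRTA1, a doublesex-related factor, stood at 3.57, 3.11 and 5.94 FPM and ELAVL2, a neuronal RNA-binding protein, at 15, 16.7 and 15.4 FPM, both listed at 0 in EV. The sources used here do not give the strand setting of the counting, so reads of CDKN2A, CDKN2B-AS1 and the overlapping antisense genes cannot be assigned between them with certainty.

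The nearest listed genes on either side had fragments in every EV library. FOCAD, whose body contains FOCAD-AS1 and reaches into the run from its left end, stood at 3.86, 4.78 and 5.59 FPM in EV and at 82, 96.5 and 79.4 FPM in the libraries labelled KIF20A_OE. TUSC1, the next listed gene beyond ELAVL2, stood at 21.5, 22.1 and 28.5 FPM against 57.5, 61.4 and 64.5 FPM. All 6 measured genes of the 9p21 list were called higher (median log2 fold change 4.23, or 6.84 with genes at 0 set to the floor), and all 6 averaged under 1 FPM in EV, so the filter fixed their direction.

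**Figure D4:**
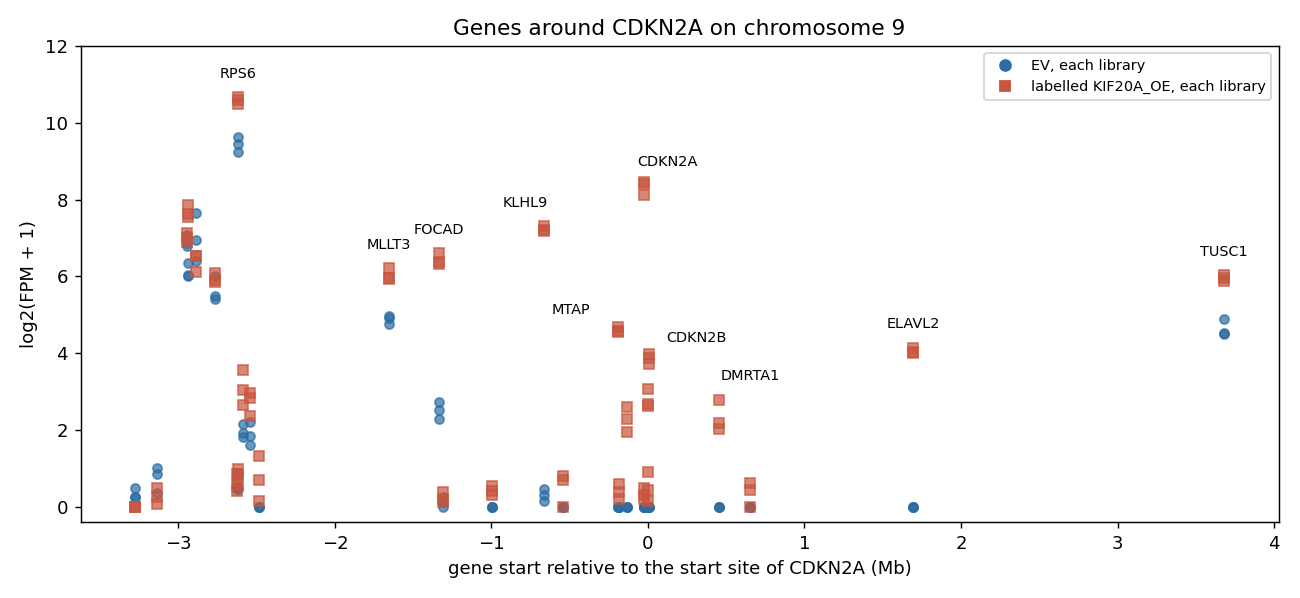
Level of listed genes around CDKN2A, as log2(FPM + 1) per library (EV blue circles, libraries labelled KIF20A_OE red squares). The x axis is the distance in Mb of each gene's lowest coordinate from the CDKN2A start site. For genes on the minus strand, CDKN2A among them, that coordinate is the end of the gene. From FOCAD-AS1 to ELAVL2 every EV library has at most 8 fragments per gene, while CDKN2A lies at 276 to 353 FPM in the libraries labelled KIF20A_OE.

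HOX genes of every cluster had fragments in the libraries labelled KIF20A_OE. Of 36 tested HOX genes 35 were higher and 1 lower, with a median log2 fold change of 4.41, or 6.43 with genes at 0 set to the floor. Of the 36, 24 averaged under 1 FPM in EV, so the filter fixed their direction, and of the 12 at 1 FPM or more in EV 11 were higher and 1 lower. Their summed level was 39.8 to 88.4 FPM in EV and 1682 to 1987 FPM in the libraries labelled KIF20A_OE. All 11 tested HOXA genes, all 9 HOXB genes, all 8 HOXC genes and 7 of 8 HOXD genes were higher. Both anterior and posterior genes took part. HOXA5, of the middle of the cluster, went from 0.333, 0.242 and 0.0588 FPM to 78.3, 116 and 108 FPM. HOXB9 was the most abundant, at 364, 429.8 and 296 FPM, and was not silent in EV, at 18.8, 9.91 and 24.6 FPM (log2 fold change 4.35 ± 0.30 SE, limma adjusted p = 4.88e-06). HOXC10, a posterior gene, went from 0.19, 0 and 0.823 FPM to 45.5, 49.3 and 48.5 FPM. HOXD13, the last gene of its cluster and a regulator of digit formation, was listed at 0 in EV and stood at 159, 163 and 142 FPM, at least 999-fold higher. HOXD1, the first of the same cluster, was the only 1 lower, at 14.6, 8.07 and 21.9 FPM in EV against 0.376, 0.451 and 0.0535 FPM. The depletion libraries held 0.145 to 0.788 CPM of HOXD1 and 0 of HOXD13.

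**Figure D5:**
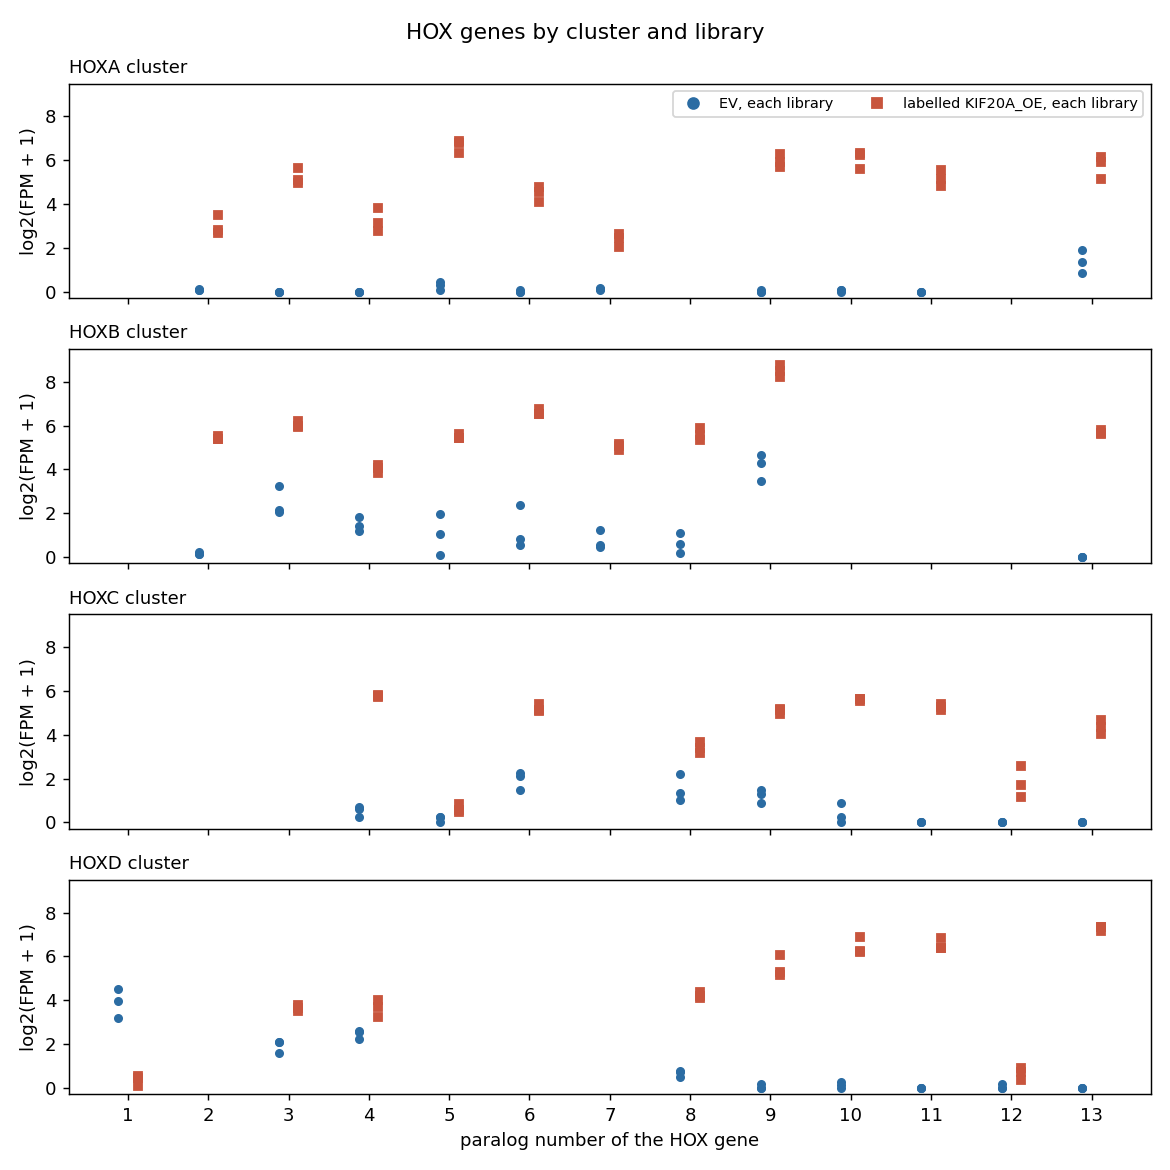
Level of the HOX genes by paralog number (x axis) in the A, B, C and D clusters, as log2(FPM + 1), with a point per library (EV blue circles, libraries labelled KIF20A_OE red squares). The libraries labelled KIF20A_OE lie far above EV at HOXD13 (159, 163 and 142 FPM against 0) and below it at HOXD1.

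Neural genes differed mainly by members near 0 in EV. Of 18 tested genes of neurons 12 were higher, 3 lower and 3 not called (median 3.01, or 4.43 with genes at 0 set to the floor). Of the 18, 10 averaged under 1 FPM in EV, and of the other 8 tested 2 were higher and 3 lower. UCHL1, an abundant ubiquitin hydrolase of neurons, was listed at 0 in EV and stood at 136, 138 and 166 FPM, at least 946-fold higher. NEFL, the light neurofilament chain, was also at 0 in EV and stood at 101, 50.6 and 89.8 FPM. NCAM1, the neural cell adhesion molecule, went from 0, 0.0967 and 0.118 FPM to 48.9, 43.2 and 45 FPM. The 3 lower members were L1CAM, NES and TUBB3. L1CAM, an adhesion molecule also found on cancer cells, fell from 464, 239 and 165 FPM to 11.8, 2.84 and 5.78 FPM, and NES, the progenitor filament nestin, from 58.8, 67.6 and 132 FPM to 10.5, 14.2 and 9.64 FPM. The depletion libraries held 186 to 359 CPM of L1CAM, within the range of EV. Of NES they held 4.1 to 11.8 CPM, nearer to the libraries labelled KIF20A_OE. DCX, ELAVL4 and PHOX2A were not in the table, which lists no gene under 7 fragments in total.

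Of 18 neural progenitor and glial genes 17 were higher and 1 lower (median 3.22, or 5.43 with genes at 0 set to the floor). In EV 11 averaged under 1 FPM, and of the other 7 tested 6 were higher and 1 lower. MSI1, an RNA-binding protein of neural stem cells, went from 0.238, 0.0967 and 0.0588 FPM to 67, 77.7 and 66.3 FPM. ZIC2, a zinc finger factor of the early neural plate, went from 10.6, 18.9 and 20 FPM to 126, 224 and 125 FPM. PAX6, a regulator of eye and forebrain, went from 0, 0.0483 and 0.118 FPM to 31.6, 35.2 and 36.1 FPM. PAX3, of the dorsal neural tube and neural crest, was listed at 0 in EV and stood at 29.4, 23.1 and 27.4 FPM. GFAP, the astrocyte filament, was the lower member, at 9.09, 13.1 and 10.2 FPM against 1.19, 0.811 and 0.964 FPM. Of 7 melanocyte genes 4 were higher, 2 lower and 1 not called, with 3 under 1 FPM on average in EV, and the call of MITF, the master factor of that lineage, was lost without EV replicate 1, EV replicate 2, KIF20A_OE replicate 1 or KIF20A_OE replicate 3, which left 1 lower member. MITF stood at 34.6, 28.7 and 21.2 FPM against 16.4, 18.5 and 17.5 FPM.

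Genes of kidney and urogenital development gave a similar split. Of 17 tested, 12 were higher, 4 lower and 1 not called (median 2.17, or 4.97 with genes at 0 set to the floor). In EV 9 averaged under 1 FPM, and of the other 8 tested 3 were higher and 4 lower. SALL1, a zinc finger factor of the kidney mesenchyme, had 1 fragment in all EV libraries together and stood at 55.3, 38.3 and 45.4 FPM in the libraries labelled KIF20A_OE. SIX2, which keeps nephron progenitors undifferentiated, rose from 19.3, 15.6 and 16.1 FPM to 65.1, 73 and 75.6 FPM. PAX2, a regulator of the nephric duct, was at 0 in EV and stood at 7.39, 10.7 and 9.96 FPM. EYA1, a phosphatase and transcriptional partner of SIX2, rose from 0, 0.145 and 1.23 FPM to 24.9, 17.6 and 24.9 FPM. The lower members included PAX8, at 26.1, 15.4 and 16.5 FPM against 0.376, 0.135 and 0.75 FPM, and OSR1, an early mesoderm factor, at 38.8, 39.5 and 39.8 FPM against 0.814, 0.406 and 0.0535 FPM.

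Endodermal factors differed in both directions, and for endoderm and liver the share higher lay near the 46.2% of all tested genes. Of 9 genes of endoderm and liver 4 were higher, 3 lower and 2 not called (median 0.42), and 5 averaged under 1 FPM in EV, among them all 4 higher ones. GATA4, a factor of heart and foregut, was listed at 0 in EV and stood at 35.3, 35.2 and 38.1 FPM. FOXA2, a pioneer factor of endoderm, stood at 74.8, 64.3 and 81.1 FPM in EV against 0.376, 0.0902 and 0.268 FPM, but at only 0.757 to 3.48 CPM in the depletion libraries, so EV differed from them too. The call of GATA6 was lost without EV replicate 1, KIF20A_OE replicate 2 or KIF20A_OE replicate 3 (adjusted p = 0.0537 to 0.0641). Of 8 gut, lung and prostate genes 5 were higher, 1 lower and 2 not called (median 2.85), with 2 lower when EV replicate 2 was left out, and all 5 higher ones averaged under 1 FPM in EV. CDX2, the intestinal homeobox factor, was listed at 0 in EV and in all 9 depletion libraries and stood at 38.4, 38.7 and 37.7 FPM. NKX2-1, of lung and thyroid, and PDX1, of pancreas, were also at 0 in EV, with means of 6.09 and 6.46 FPM in the libraries labelled KIF20A_OE.

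Blood, vessel and muscle genes were listed as markers of other cell types, but some had fragments in EV and in the depletion libraries. In each of these lists the share higher lay near the 46.2% of all tested genes. Of 12 leukocyte genes 6 were higher, 2 lower and 4 not called (median 1.13). All 6 higher ones averaged under 1 FPM in EV, and the list's summed level fell from 246 to 309 FPM in EV to 43.4 to 70.7 FPM. Most of that sum was RAC2, a small GTPase, at 204, 194 and 189 FPM in EV against 9.39, 2.66 and 3.43 FPM. The depletion libraries held 188 to 287 CPM of RAC2, so the sum is no measure of leukocytes in the culture. PTPRC, which defines leukocytes, was under 0.7 FPM in every EV library and at 0 in the others, and CD3D, CD3E, CD53 and MS4A1 were not in the table. Of 6 erythroid and megakaryocyte genes 3 were higher, 1 lower and 2 not called (median 1.61), 2 averaging under 1 FPM in EV and GATA2 rising from 7.14, 4.11 and 6.35 FPM to 54.8, 44.5 and 48.3 FPM. No adult globin gene was in the table.

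Of 12 endothelial genes 6 were higher, 5 lower and 1 not called (median 0.31, or 0.01 with median centring), and 4 averaged under 1 FPM in EV. In the libraries labelled KIF20A_OE 4 averaged under 1 FPM, so the filter fixed their direction as lower. FLT4, a receptor of lymphatic growth factors, rose from 0, 0 and 0.118 FPM to 65.2, 59.5 and 69.5 FPM. ROBO4, a guidance receptor of vessels, was at 83.4, 97.2 and 243 FPM in EV and listed at 0 in all libraries labelled KIF20A_OE, at least 876-fold lower. The depletion libraries held 14.2 to 47.4 CPM of ROBO4. TIE1, an endothelial receptor kinase, stood at 66.1, 64.3 and 81 FPM in EV against 0, 0.0902 and 0 FPM, and at 0 to 0.579 CPM in the depletion libraries. Of 6 muscle genes 3 were higher, 2 lower and 1 not called, with 2 under 1 FPM on average in EV, and NKX2-5, the cardiac homeobox factor, rose from 0.19, 0 and 0 FPM to 117, 92.1 and 103 FPM. The call of MYH3 in that list was lost without EV replicate 1 or KIF20A_OE replicate 3, which left 1 lower member.

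Genes of pluripotent and fetal cells were higher in 8 of 13 cases, lower in 4 and not called in 1 (median 1.46). In EV 6 averaged under 1 FPM, and of the other 7 tested 2 were higher and 4 lower. IGF2BP1, an oncofetal RNA-binding protein, went from 0.19, 0 and 0 FPM to 326, 385 and 275 FPM, a log2 fold change of 8.27 ± 0.18 (SE, limma adjusted p = 2.27e-08). LIN28B, which blocks maturation of let-7 miRNAs, was listed at 0 in EV and stood at 68.3, 101 and 59.3 FPM. PRAME, a tumour antigen silent in most adult tissue, was at 0 in EV and in all 9 depletion libraries and stood at 73.1, 92.4 and 77.1 FPM. SOX2, of pluripotent and neural cells, rose from 0.381, 0.822 and 4.41 FPM to 12.5, 13.3 and 16.3 FPM, while NANOG was not in the table. The 4 lower members included HMGA1, a chromatin protein of proliferating cells, which fell from 2572, 3540.1 and 3524 FPM to 304, 433 and 312 FPM, and IGF2BP2, a paralog of IGF2BP1, from 147, 189 and 149 FPM to 95.9, 103 and 109 FPM. Within this family the paralogs thus moved in opposite directions.

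Over a wider set of 88 tested lineage transcription factors, which shares members with the lists above, 57 were higher, 16 lower and 15 not called (median 2.25, or 3.26 with genes at 0 set to the floor). In EV 38 averaged under 1 FPM, so the filter fixed their direction, and of the other 50 tested 19 were higher and 16 lower. Of the 88, 17 were at 0 in all EV libraries and none was at 0 in all libraries labelled KIF20A_OE. FOXD1, a forkhead factor of kidney stroma and retina, was listed at 0 in EV and stood at 96.7, 106 and 76.3 FPM. POU4F1, of sensory neurons, was also at 0 in EV and stood at 68, 76.3 and 48.9 FPM. TBX2 and TBX18, T-box factors of limb, heart and ureter, went from means of 0.27 and 0.21 FPM to 54 and 52.6 FPM. The lower factors included SOX9, a factor of progenitor and cartilage cells, at 295, 323 and 363 FPM in EV against 41.8, 49.7 and 43.7 FPM, and TEAD1, the DNA-binding partner of YAP, at 356, 386 and 409 FPM against 100.4, 93.4 and 92.5 FPM.

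The 10 largest rises by difference in log2(FPM + 1), among genes without overlap, include 9 that can be given. A ranking by pooled ratio would name other genes, since low levels weigh more in it. IRS4, an insulin receptor substrate, had the largest difference on that scale, at 0 in all EV and depletion libraries and at 1750.4, 1219 and 1744 FPM, at least 10153-fold higher (log2 fold change 10.60 ± 0.17 SE, limma adjusted p = 6.35e-09). AMOT, an angiomotin that binds YAP, had 5 fragments in EV replicate 1 and none in the others, and stood at 653, 377 and 752 FPM. SLC16A1, a lactate transporter, went from 0.19, 0.193 and 0.118 FPM to 279.9, 316 and 264 FPM, and NID1, the basement membrane protein nidogen, from 2 fragments in all to 233, 202 and 221 FPM. ZNF711, a zinc finger protein, was at 0 in EV and stood at 141, 133 and 155 FPM. CDKN2A, IGF2BP1, HOXD13 and UCHL1 complete the set and were described above. The depletion libraries held at most 0.546 CPM of any of the 9, the highest being SLC16A1.

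The 10 largest falls on the same log2(FPM + 1) scale include 9 that can be given, CST1, NT5E, KRT19, CDCP1, AXL, PLAU, MMP14, CD44 and S100A6. CST1, a secreted inhibitor of cysteine proteases, stood at 1249.5, 777 and 1855 FPM in EV and had 1 fragment in the libraries labelled KIF20A_OE. It lay at only 20.5 to 49.9 CPM in the depletion libraries. CDCP1, a transmembrane substrate of SRC kinases, stood at 884, 805 and 819 FPM against 0.125, 0.0902 and 0 FPM. S100A6, a calcium-binding protein, stood at 836, 724 and 839 FPM against 1.82, 0.766 and 0.589 FPM. The other 8 were all above 200 CPM in every depletion library.

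By presence alone, 340 genes had at least 5 FPM in every library labelled KIF20A_OE and at most 3 fragments in every EV library (2.23% of the number tested), and 145 showed the reverse (0.95%). These limits define the sets, which are given as a description. Of the 340, 306 are protein coding, and 308 (90.6%) were under 0.5 CPM in all 9 depletion libraries. Of the 145, 109 are protein coding, and 120 (82.8%) were at 1 CPM or more in all 9. Shares over all tested genes at these CPM limits are not given, so neither value can be called a trait of its set. At 9 of the 340 the depletion libraries all had 1 CPM or more, and at 4 of the 145 all were under 0.5 CPM.

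Genes of mitosis, the process in which KIF20A acts, were mostly not called. Of 25 tested besides KIF20A, 8 were higher, 2 lower and 15 not called (median 0.40, against 0.37 for all genes). In EV 1 averaged under 1 FPM. With median centring 4 were higher and 4 lower (median 0.10). The count of higher members was 16 without EV replicate 2, 4 without EV replicate 1 or KIF20A_OE replicate 2 and 5 without KIF20A_OE replicate 3, and 4 were lower without EV replicate 1. PLK1, the kinase that recruits factors to the central spindle, stood at 71.9, 125 and 92.8 FPM against 185, 223 and 216 FPM (log2 fold change 1.13 ± 0.20 SE, limma adjusted p = 0.000915). MAD2L1, a spindle checkpoint protein, stood at 43.9, 75.4 and 90.9 FPM against 165, 195 and 191 FPM. ANLN, a scaffold of the contractile ring, was lower, at 379.9, 551 and 462 FPM against 131, 167 and 169.5 FPM. The depletion medians of PLK1 (161 CPM) and MAD2L1 (146 CPM) lay nearer to the libraries labelled KIF20A_OE than to EV. For ANLN the depletion libraries held 652 to 1133 CPM, nearer to EV. AURKA, a spindle pole kinase, did not pass the test, at 106, 166 and 83 FPM against 97.1, 119 and 103 FPM. Of 24 housekeeping genes 8 were higher, 7 lower and 9 not called (median -0.14). With median centring these were 4 and 13 (median -0.44), and without KIF20A_OE replicate 2 the count of higher ones was 5. ACTB stood at 3948, 4316 and 4541 FPM against 1999.6, 2456 and 2445 FPM, and GAPDH, at 1734 against 1467 FPM on average, did not pass the test (limma adjusted p = 0.0819).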

How the data were processed

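Values of the 6 libraries were deposited by the authors as a table that the labels call FPKM. Each column sums to 1000000 in steps of 1 fragment, so they are a fragment form of CPM without gene length, and 100% of values gave whole fragments within 0.001. The other 9 libraries were deposited as raw gene counts by the authors, at 40.9 to 51 M per library, and were turned into CPM here. Tools named in the submitters' processing notes were STAR 2.7.3a, Trim Galore 0.6.4, Subread 1.6.3 with featureCounts, and limma 3.50.3, on hg38. The sources used here do not give the annotation, the strand setting or filters, and the FPM table lists no mitochondrially encoded gene. Of its identifiers 97.3% matched GENCODE 29 on GRCh38, which gave coordinates.

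Groups came from the sample titles. Differences were tested with limma 3.58.1 in R 4.3.3 (trend and robust moderation) on log2(FPM + 1), over genes that averaged 1 FPM or more, with Benjamini-Hochberg adjustment over all tested genes and a threshold of 0.05, as the design assumed for FPKM values. The test was also run on simulated data with far fewer and smaller changes than those found here. That run therefore does not show how the test performs on these data. edgeR 4.0.16 (quasi-likelihood) and DESeq2 1.42.0 on the recovered fragments were alternatives. Pooled ratios have exact 95% intervals. Named genes were KIF20A, the 10 largest rises and falls without overlap and with at least 1 FPM, up to 2 members higher and 2 lower per list by level, and the 9p21 genes. Other genes that the text gives values for, among them CAV1, EHF, TM4SF1, NCAM1, EGFR, FOSL1, FOXD1 and POU4F1, were chosen after their values were seen. The members and the 23 lists were chosen with earlier results of these data known. Transcripts of sex-chromosome dosage, 1 of the 10 largest rises among them, are not reported here, nor are some other genes, and 1 HOX gene is left out of the HOX plot.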

Additional observations from a re-analysis of the deposited data

How the results depend on the processing

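Alternatives were 0.5 and 0.1 as pseudocounts, no filter, a mean of at least 5 FPM, median centring, the replicate block, limma without trend and robust moderation, edgeR, DESeq2 and each library left out. KIF20A stayed higher and past the threshold in all of them, at 2.01 to 3.17 (log2) when a library was left out. Counts of higher genes were 6480 to 6924 and of lower genes 3225 to 3422 without 1 library. They were 9022 and 4232 without the filter, 5425 and 2997 at 5 FPM or more, and 5673 and 5216 with edgeR. Same-numbered libraries deviated together only weakly (r = 0.036, 0.0577 and 0.0142, each the highest of its number). With so few libraries this neither shows nor excludes a pairing by number. The replicate block gave 6984 higher and 3546 lower genes. Presence at 10 FPM in place of 5 FPM, chosen after seeing the data, left 208 genes only in the libraries labelled KIF20A_OE and 98 only in EV. Without 1 library, also chosen after seeing the data, these sets held 347 to 401 and 153 to 170. Among named genes no value reversed, and 21 of 1495 lost the call, in GATA6, JUP, MAGEC1, MITF, MYH3 and SPARC. Of the counts of members per list, 49 of 690 moved by over 1.5 times, most of them small counts or the mitosis and housekeeping lists. With 16 to 22.2 M fragments per library, a gene without a fragment may still lie at up to 0.135 to 0.188 FPM.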

Other observations

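Cancer-testis genes, normally silent outside the germ line, varied within EV. Of 8 tested 1 was higher, 2 lower and 5 not called in the libraries labelled KIF20A_OE (median -1.15). In EV 2 averaged under 1 FPM and in the libraries labelled KIF20A_OE 6 did, so the filter fixed the direction of all 8. MAGEA6 stood at 57.7 FPM in EV replicate 2 and at 0 in the other EV libraries and in all libraries labelled KIF20A_OE. MAGEC2 stood at 50.4 FPM in EV replicate 1 and at 0 and 0.647 FPM in replicates 2 and 3. TEX15, a meiotic gene, was the higher member, at 17.3, 16.9 and 19 FPM against 0 in EV. The call of MAGEC1 was lost when any library labelled KIF20A_OE was left out, which left 1 lower member.

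Genes present in only 1 group lay side by side in places. A run of 5 tested neighbours present only in the libraries labelled KIF20A_OE held LRRC4B, SYT3, C19orf81, SHANK1 and CLEC11A (chr19:50516892-50725718). Among genes present only in EV, CST4, CST1 and CST2 were neighbours (chr20:23685640-23826731). By chromosome, the median log2 fold change ran from -0.08 on chromosome 18 to 1.27 on chromosome 22, where 290 of 372 tested genes were higher. With median centring these medians were -0.38 and 0.97.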
